A study of Homo sapiens with 9 samples.

Results

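CD36 and 9 other genes of fatty acid handling (LPL, FABP3, FABP5, ACSL1, ACSL3, FASN, SCD, PLIN2 and CPT1A) were followed across 3 lines of T47D, an estrogen receptor-positive human breast cancer cell line. The members were all probes that the array files name for these genes, 14 probes for 10 of the 43370 genes on the array. T47D-VC1 carried the empty vector, T47D-PA6 expressed full-length PTH-AS, a long noncoding RNA encoded downstream of the parathyroid hormone gene, and T47D-PA5 expressed incomplete PTH-AS, which lacks part of the 5′ side. All 3 lines were made by stable transfection and drug selection, and each stands for 1 selected line, so a line's own history cannot be told apart from the transcript it carries. Each line had 3 one-color microarrays, 9 in all, and no source used here states that the replicates were separate cultures, so the spread between them may be technical. PTH-AS itself was not analysed here. The set was chosen by the normalized signals of these same arrays, CD36 in T47D-PA6 above all, so the values of the members are given as a description, with no test.

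Cells draw fatty acids from outside through surface proteins such as CD36, with lipoprotein lipase (LPL) releasing them from circulating triglyceride and FABP proteins carrying them through the cytoplasm. Acyl-CoA synthetases (ACSL1, ACSL3) activate them, after which they are stored in lipid droplets coated by PLIN2 or brought into mitochondria through CPT1A to be oxidized. Many carcinomas also make their own fatty acids, with FASN building palmitate and SCD adding a double bond.

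CD36 was read by 1 probe and so was FABP3, and their sequences are shown with those of the main PLIN2 probe and the CPT1A probe because the results on uptake, storage and oxidation rest on these stretches of mRNA.
CD36: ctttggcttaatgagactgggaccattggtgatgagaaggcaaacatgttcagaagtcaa
FABP3: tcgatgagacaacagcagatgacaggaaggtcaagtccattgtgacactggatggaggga
PLIN2: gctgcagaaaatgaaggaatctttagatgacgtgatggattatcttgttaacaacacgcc
CPT1A: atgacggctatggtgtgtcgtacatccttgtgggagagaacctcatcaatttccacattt
Each is 60 bases long, and 26, 30, 24 and 27 of them are G or C. The files place them on hg19. The CD36 probe lies at chr7:80302711-80303343 on the plus strand, and since these 633 bases hold only 60 of the probe it joins exons across an intron. The FABP3 probe, at chr1:31840317-31842266 on the minus strand, also crosses an intron. The PLIN2 probe lies at chr9:19116370-19116429 and the CPT1A probe at chr11:68527063-68527122, both on the minus strand and each an unbroken stretch. RefSeq lists 6 start sites for CD36 on GRCh38.p14, spread over 44.2 kb of chromosome 7, and the probe's signal does not say which of them was used.

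Signals are intensities in arbitrary units after quantile normalization. They can be compared between arrays for 1 probe and not between probes. Line means are geometric, their SDs and all differences are on the log2 scale, and differences carry the standard error of the limma fit over 9 arrays. Of the 10 members, 7 had a probe that all 3 arrays of some line showed well above background, and these were tested with the other genes, 20092 in all. Between 44% and 48% of probes were well above background on an array. Replicate 1 of every line was on slide 1, in another scan run than the rest, and it stood apart: the median absolute difference over genes was 0.21 to 0.27 between replicate 1 and the others of its line, and 0.09 to 0.11 between replicates 2 and 3. The second arrays of T47D-VC1 and T47D-PA5 were on slide 2, and the remaining 4 arrays on slide 3. All 9 markers fixed for luminal breast epithelium, ESR1 and the keratins among them, were well above background on all 9 arrays, although the progesterone receptor gene PGR had a log2 difference of -1.07 between T47D-PA6 and T47D-VC1 (adjusted p-value 0.0072, limma).

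Among the uptake genes, CD36 was the member that separated T47D-PA6 from both other lines. Its signal was 119, 146 and 132 on the arrays of T47D-VC1, 156, 135 and 117 on those of T47D-PA5, and 2043, 954 and 991 on those of T47D-PA6. Every T47D-PA6 array lay above every other array, while those of T47D-VC1 and T47D-PA5 overlapped. The mean signal was 1245 (SD 0.62, n = 3) in T47D-PA6 compared with 132 (SD 0.15, n = 3) in T47D-VC1 and 135 (SD 0.20, n = 3) in T47D-PA5, or 9.46-fold and 9.21-fold higher. The log2 difference was 3.24 ± 0.28 (SE) from T47D-VC1 and 3.20 ± 0.28 from T47D-PA5. CD36 ranked 70 from the top among the 20092 genes in the first of these comparisons and 36 in the second. Between T47D-PA5 and T47D-VC1 the difference was 0.04 ± 0.28, with a 95% interval of -0.59 to 0.67, so these arrays leave room for a change of that size either way. In RNA of whole cultures, more cells with CD36 mRNA and more CD36 mRNA per cell cannot be told apart.

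The size of the CD36 difference was not the same on each slide. Within slide 1 T47D-PA6 exceeded T47D-VC1 by 4.10 on the log2 scale, or 17.2-fold, and within slide 3 by 2.88, or 7.38-fold. Slide 1 held replicate 1 alone of each line, and slide 3 only replicate 3 of T47D-VC1 and of T47D-PA5. A slide effect thus cannot be told apart from the spread of single arrays. Against T47D-PA5 the values were 3.71 and 3.05. Without slide 1 altogether the difference from T47D-VC1 was 2.81, and with slide as a block it was 3.36.

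**Figure D1:**
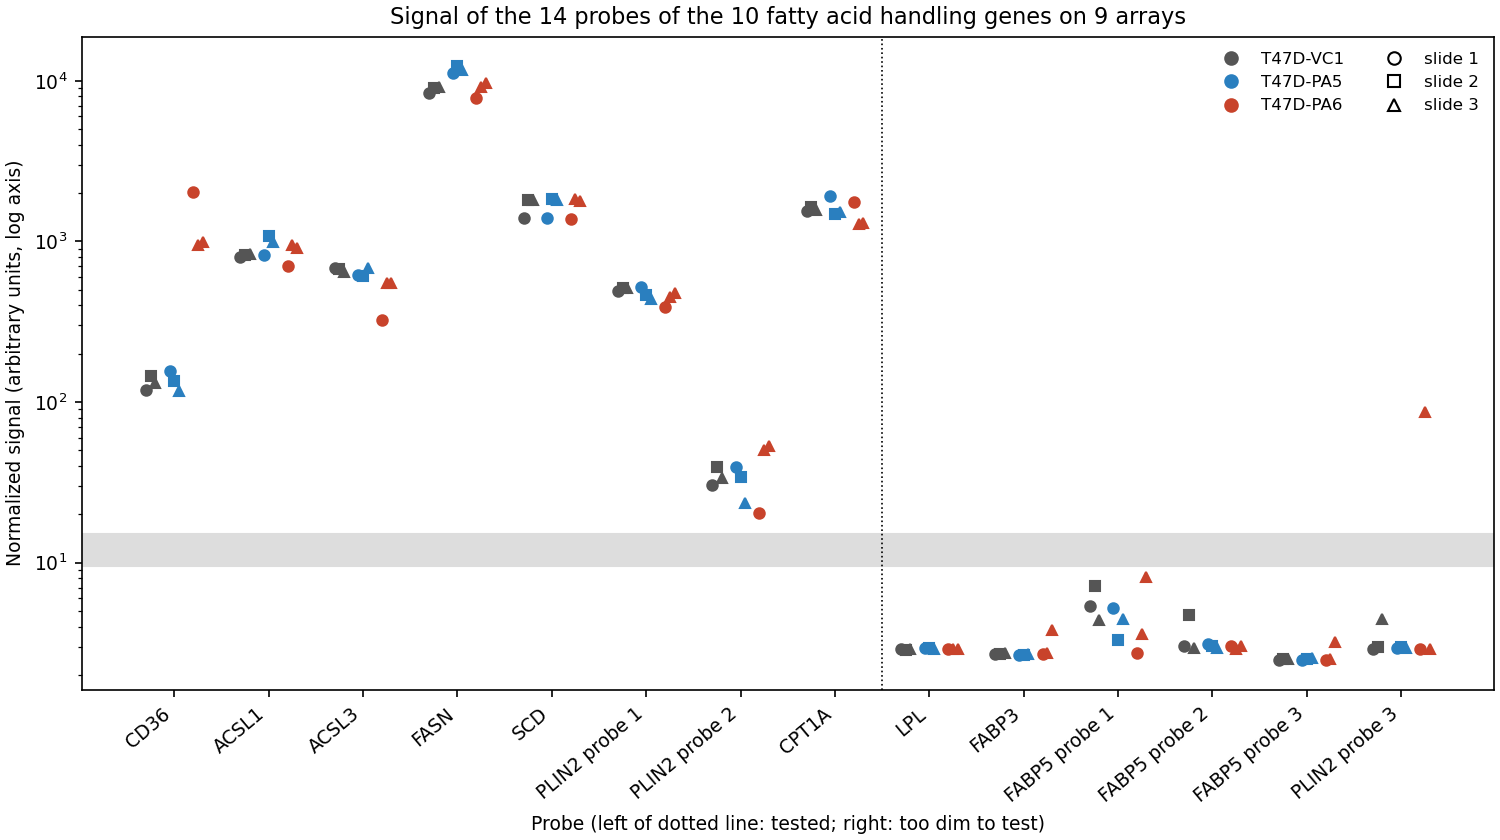
Normalized signal (log axis, arbitrary units) of each of the 14 probes on the 9 arrays, with color for the line and symbol for the slide; the grey band spans the lowest signals that were well above background on the 9 arrays, 9.59 to 15.2. CD36 is near 1000 or above on the T47D-PA6 arrays and between 117 and 156 elsewhere, and the probes right of the dotted line stay under the band apart from 1 array of a PLIN2 probe. Heights are comparable within a probe only.

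CD36 is also made by macrophages, adipocytes and endothelial cells, so markers of these cells were read on the same arrays. Of 4 macrophage or monocyte markers with a probe, CD163 and CSF1R were well above background on no array, and PTPRC (CD45) differed by -0.17 between T47D-PA6 and T47D-VC1 (adjusted p-value 0.73, limma). CD14, a co-receptor for bacterial lipopolysaccharide, rose by 1.80 from T47D-VC1 to T47D-PA6 (adjusted p-value 0.0080), a call kept under 20 of 21 alternatives, at 1.08 with normexp. CD68 was not analysed here. The summed signal of the 4 markers was 74.2 to 82.9 on T47D-VC1 arrays, 132 to 167 on T47D-PA5 arrays and 129 to 249 on T47D-PA6 arrays, while in the same order the means were 47.8, 115 and 167 for CD14 and 20.3, 20.8 and 18.0 for PTPRC. Of 5 adipocyte markers, ADIPOQ and PLIN1 were on no array well above background, while CIDEC and LIPE were so on all arrays. CIDEC and LIPE differed by -0.01 and 0.05 between T47D-PA6 and T47D-VC1 (adjusted p-values 0.98 and 0.93, limma). The adipocyte sums overlapped between lines, at 1710 to 1880, 1723 to 1873 and 1742 to 1831. Of 5 endothelial markers, PECAM1, KDR and TEK were on no array well above background, while VWF and CDH5 were so on all arrays, at low signal. VWF and CDH5 differed by -0.23 and -0.44 between T47D-PA6 and T47D-VC1 (adjusted p-values 0.50 and 0.30, limma). The endothelial sums were 55.3 to 79.3, 51.6 to 75.7 and 51.0 to 59.9. Of 5 fibroblast markers, COL1A2, DCN and LUM were well above background on no array. The fibroblast sums were 343 to 383, 311 to 356 and 251 to 284. COL1A1 differed by -0.50 between T47D-PA6 and T47D-VC1 (adjusted p-value 0.021, limma). The part of other cells in the CD36 difference was not tested.

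The other 3 uptake members gave no signal well above background on any array. LPL lay between 2.88 and 2.95 on the 9 arrays. FABP3, the form known from heart muscle, lay between 2.68 and 3.81. The 3 probes of FABP5, the form known from epidermis, lay between 2.48 and 8.16. The lowest signal that counted as well above background was 9.59 to 15.2, so these probes bound the level from above and give no order of the lines. T47D-PA6 replicate 3 was the highest of the 9 arrays for FABP3 and for 2 of the 3 FABP5 probes, at values still under that limit.

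Neither activating enzyme differed between lines by as much as CD36. ACSL1 gave 805, 821 and 841 in T47D-VC1, 818, 1077 and 989 in T47D-PA5, and 701, 955 and 916 in T47D-PA6. The lines overlapped in each comparison. T47D-PA6 differed from T47D-VC1 by 0.05 ± 0.15, with a 95% interval of -0.29 to 0.39, and T47D-PA5 by 0.22 ± 0.15.

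ACSL3, which is found on the endoplasmic reticulum and on forming lipid droplets, gave 683, 675 and 649 in T47D-VC1, 614, 612 and 679 in T47D-PA5, and 325, 549 and 552 in T47D-PA6. All T47D-PA6 arrays were lower than all others, as were those of 17.8% of tested genes against T47D-VC1 and 18.4% against T47D-PA5. The log2 difference was -0.54 ± 0.20 from T47D-VC1 and -0.46 ± 0.20 from T47D-PA5. Most of it came from replicate 1: within slide 1 ACSL3 differed from T47D-VC1 by -1.07, and within slide 3 by -0.24. The T47D-PA6 array with the highest CD36 signal was thus also the one with the lowest ACSL1 and ACSL3 signals of the 9.

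For synthesis, FASN stood highest in T47D-PA5. Its signals were 8377, 9041 and 9094 in T47D-VC1, 11209, 12284 and 11691 in T47D-PA5, and 7816, 9137 and 9741 in T47D-PA6. Every T47D-PA5 array exceeded every array of the other lines, as 11.2% of tested genes did against T47D-VC1, whereas T47D-VC1 and T47D-PA6 overlapped. The difference of T47D-PA5 from T47D-VC1 was 0.41 ± 0.11, or 1.33-fold, and it stayed between 0.36 and 0.44 within the 3 slides. T47D-PA6 differed from T47D-PA5 by -0.40 ± 0.11 and from T47D-VC1 by 0.00 ± 0.11, with a 95% interval of -0.25 to 0.26.

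SCD split between replicate 1 and the other replicates, and not by line. Replicate 1 of every line was also on slide 1 and in its own scan run, so these cannot be told apart. It gave 1395, 1391 and 1382 on the slide 1 arrays of T47D-VC1, T47D-PA5 and T47D-PA6, and between 1790 and 1841 on the other 6 arrays. The 3 differences between lines were 0.00, 0.01 and -0.01, each with an SE of 0.17 and an interval of about 0.40 to each side. Within slide 1 and within slide 3 they were between -0.01 and 0.00.

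PLIN2, the coat protein of lipid droplets in most cell types, was read by 3 probes. The brightest gave 488, 513 and 511 in T47D-VC1, 517, 462 and 441 in T47D-PA5, and 388, 453 and 475 in T47D-PA6. The T47D-PA6 arrays lay under those of T47D-VC1, with a log2 difference of -0.21 ± 0.11 and a 95% interval of -0.46 to 0.05. A further probe, matched to another transcript, gave 30.4, 39.4 and 33.8, then 39.3, 34.1 and 23.7, then 20.3, 50.2 and 53.0 in the same order of lines, and its difference from T47D-VC1 was 0.14 ± 0.36. The remaining probe was well above background on T47D-PA6 replicate 2 alone, at 86.9, against 2.90 to 4.49 on the other 8 arrays, and was not tested. So the probes did not share a direction, and the lone high value had no counterpart on the replicate from the same slide.

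CPT1A, the carnitine palmitoyltransferase of the outer mitochondrial membrane that controls entry into oxidation, gave 1540, 1630 and 1580 in T47D-VC1, 1921, 1483 and 1535 in T47D-PA5, and 1751, 1290 and 1302 in T47D-PA6. The lines overlapped. T47D-PA6 differed from T47D-VC1 by -0.14 ± 0.15 (95% interval -0.49 to 0.20), at 0.19 within slide 1 and -0.29 within slide 3.

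**Figure D2:**
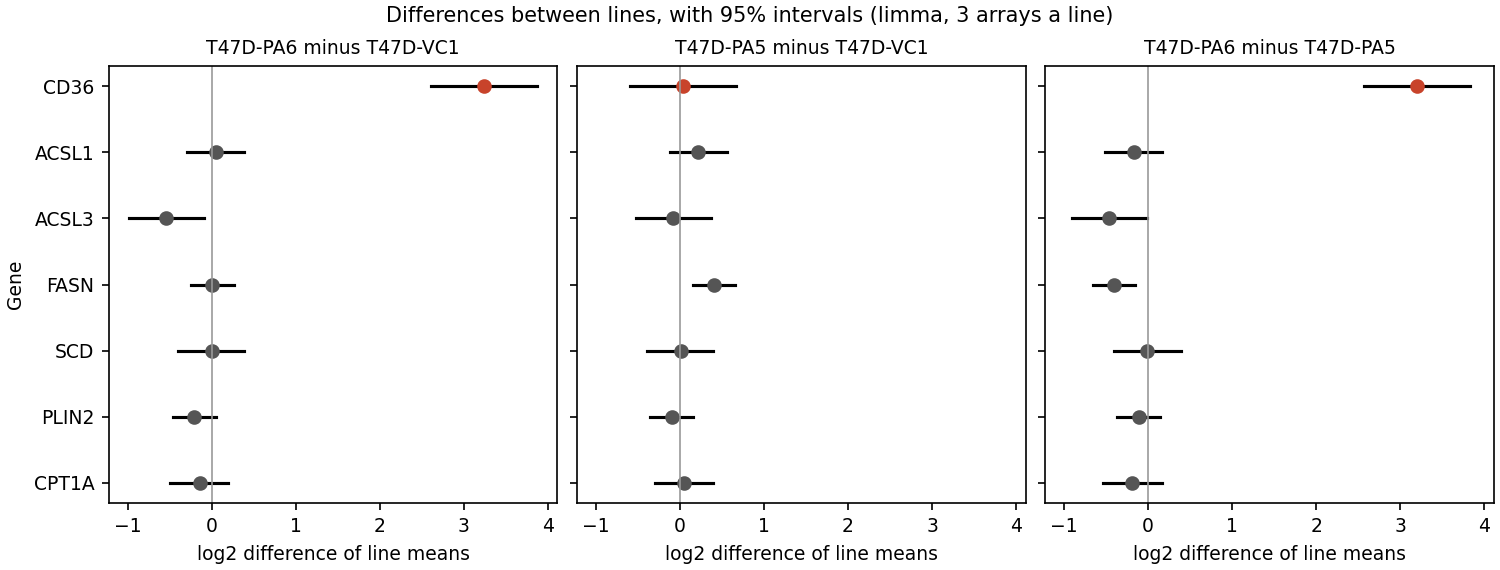
Log2 difference of line means for the 7 tested members in the 3 comparisons; points are differences, bars 95% intervals from limma with 3 arrays a line. CD36 lies at 3.24 and 3.20 where T47D-PA6 enters and at 0.04 where it does not, and no other member is more than 0.54 from 0.

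Counted over the fit, CD36 was the 1 tested member of 7 with an adjusted p-value under 0.05 between T47D-PA6 and T47D-VC1, where 9.74% of the 20092 genes were called (4.58% higher, 5.16% lower), and again the 1 of 7 between T47D-PA6 and T47D-PA5, where 9.46% were called (3.51% higher, 5.95% lower). Between T47D-PA5 and T47D-VC1 limma called 0 of 7 members, with 1.65% of genes called (1.35% higher, 0.299% lower); 1 member, FASN, had an unadjusted p-value under 0.05, and the methods' t-test gave the same counts, 0 adjusted and 1 unadjusted. By the study's definition of a changed gene, a ratio above 2 or below 0.6, CD36 was the 1 member counted in either T47D-PA6 comparison and 0 were counted in T47D-PA5, against 3.47% of genes above 2 and 4.18% below 0.6 in T47D-PA6 compared with T47D-VC1, 2.16% and 1.76% in T47D-PA5 compared with T47D-VC1, and 2.68% and 5.31% in T47D-PA6 compared with T47D-PA5. Without overlap between the arrays of the lines were 3 of 7 members (CD36, ACSL3 and PLIN2) in the first of these, 1 (FASN) in the next and 3 (CD36, ACSL3 and FASN) in the last, against 30.9%, 23.3% and 32.7% of genes. CD36 was among the genes that chose this set, so nothing is read from these counts. When slide 1 was left out, with 2 arrays a line, the members called became CD36, ACSL3 and CPT1A between T47D-PA6 and T47D-VC1, ACSL1 and FASN between T47D-PA5 and T47D-VC1, and CD36, FASN and CPT1A between T47D-PA6 and T47D-PA5; the share of all genes called rose too, to 7273, 4030 and 6938 genes. With slide as a block the member FASN joined CD36 in the last comparison.

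The wider pathway was read from 133 other genes, of which 109 were tested. Between T47D-PA6 and T47D-VC1 limma called 13 of them (11.9%), 5 higher and 8 lower, close to the 9.74% of all genes, and the median log2 difference was -0.08 compared with -0.03 over all genes. Between T47D-PA5 and T47D-VC1 it called 3 (2.75%), all higher, against 1.65% of all genes, and between T47D-PA6 and T47D-PA5 13 (11.9%), 4 higher and 9 lower, against 9.46%. These counts fell to 3, 1 and 5 by the methods' t-test after adjustment, and rose to 49, 31 and 57 without slide 1. With slide as a block the T47D-PA5 count was 5, while all genes called there went from 332 to 591.

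**Figure D3:**
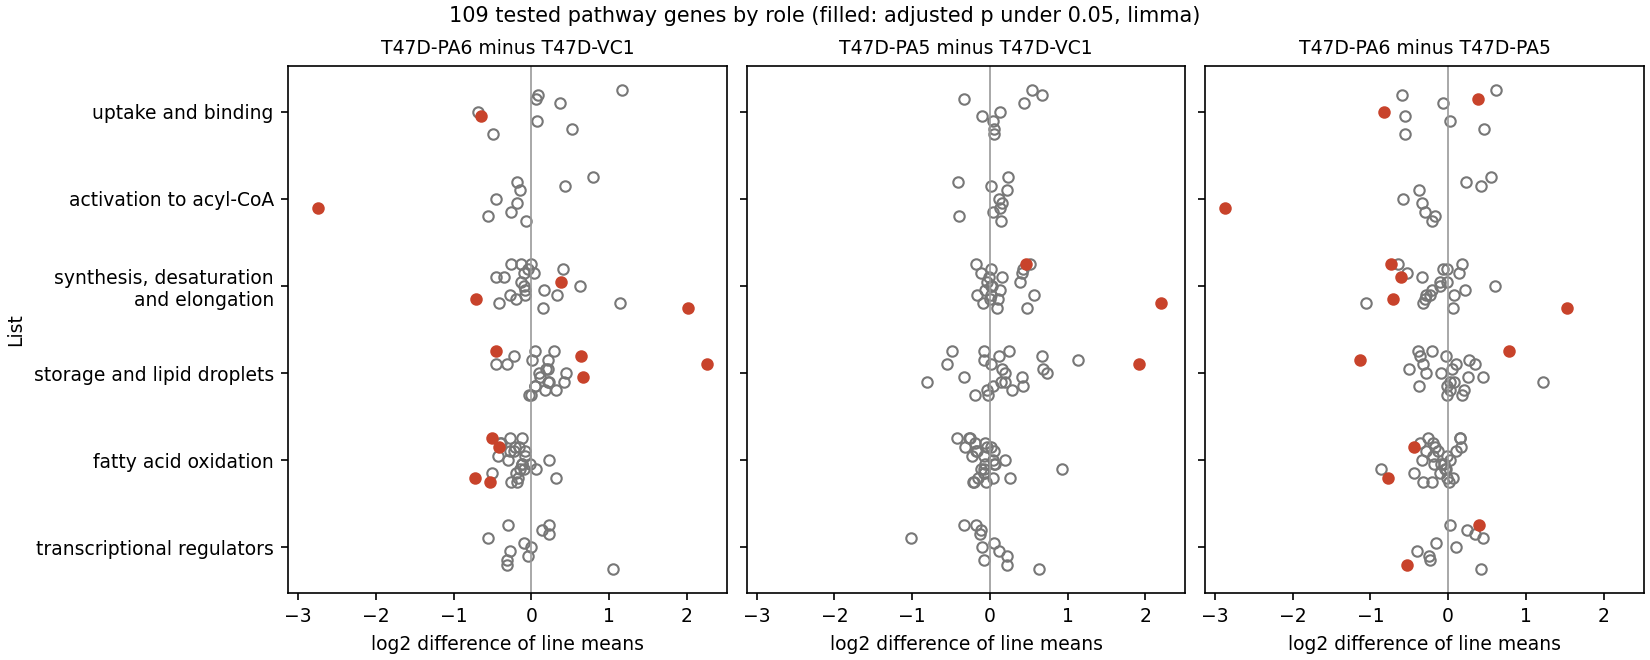
Log2 difference of line means for the 109 tested pathway genes, by role, in the 3 comparisons; filled points are genes called by limma after adjustment. Of the 29 oxidation genes, 26 lie left of 0 for T47D-PA6 compared with T47D-VC1, while the called genes of the storage list lie mostly to the right.

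Of 20 other genes of uptake and binding, 9 were tested. CAV1, CAV2, FABP4 and SLC27A6 were among the 11 that were not. SLC27A4, which encodes the fatty acid transport protein FATP4, gave 388, 410 and 397 in T47D-VC1 and 291, 239 and 236 in T47D-PA6. It was the 1 gene called between these lines, by -0.65 ± 0.17 (adjusted p-value 0.045, limma), a call kept under 12 of 21 alternatives. Between T47D-PA6 and T47D-PA5, LMF1, a maturation factor for lipases, fell by 0.82 (adjusted p-value 0.035, kept under 11 of 21), and SLC27A5, a bile acid and fatty acyl-CoA ligase, rose by 0.38 (adjusted p-value 0.046, kept under 8 of 21 and lost with slide as a block). Between T47D-PA5 and T47D-VC1 limma called 0 of 9, with 1 at an unadjusted p-value under 0.05, and the methods' t-test called 0 after adjustment and 1 before.

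Of 12 further genes of acyl-CoA formation, 10 were tested. ACSL6, an acyl-CoA synthetase best known from brain, gave 19.8, 23.3 and 15.6 in T47D-VC1, 12.4, 23.2 and 32.5 in T47D-PA5, and 2.96, 2.81 and 2.90 in T47D-PA6, where it was on no array well above background. It was at least 1.66-fold lower there than in T47D-VC1 (adjusted p-value 0.0019, limma), with a measured mean of 2.89 against 19.3, and the call against T47D-PA5 had an adjusted p-value of 0.0023. ACSL6 was tested only because it passed the filter in T47D-VC1, where it is high. After normexp background correction the log2 difference from T47D-VC1 was -0.32, smaller than the 1.66-fold bound, and the call was lost. The normexp offset of 50 exceeds all these signals and shrinks their log2 differences, so this value and the bound are not like measures. It was the 1 gene of this list called in either T47D-PA6 comparison. Between T47D-PA5 and T47D-VC1 limma called 0 of 10 (1 unadjusted), and the methods' t-test called 1 after adjustment and 1 before.

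For synthesis, desaturation and elongation, 24 of 26 other genes were tested. Against T47D-VC1, T47D-PA6 had 2 called higher and 1 lower, or 12.5% of the tested genes, near the 9.74% of all genes. ELOVL4, which makes very long chain fatty acids, gave 21.4, 39.2 and 35.7 in T47D-PA6 and was on no array of the other lines well above background, where it lay between 5.01 and 11.5. It was at least 2.48-fold higher than in T47D-VC1 (adjusted p-value 0.0057) and at least 2.39-fold higher than in T47D-PA5 (adjusted p-value 0.017), calls kept under 19 and 14 of 20 alternatives. It was tested only because it passed the filter in T47D-PA6, the line where it is high. With normexp background correction the log2 differences were 0.39 and 0.35, smaller than these bounds. As for ACSL6, the offset of 50 exceeds these signals and shrinks such differences. FADS2, the delta-6 desaturase, gave 1605, 2006 and 1785 in T47D-VC1, 1796, 1777 and 1801 in T47D-PA5, and 1058, 1101 and 1132 in T47D-PA6. It was lower in T47D-PA6 by -0.71 ± 0.11 against either line (adjusted p-values 0.0058 and 0.0066), calls kept under 20 and 21 of 21 alternatives. FADS3, a related desaturase, was higher than in T47D-VC1 by 0.38 (adjusted p-value 0.036, kept under 11 of 21 and lost with slide as a block). In T47D-PA5 it was higher than in T47D-VC1 by 0.39 (adjusted p-value 0.077, limma), with all arrays above. T47D-PA6 differed from T47D-PA5 in FADS3 by -0.01.

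In T47D-PA5 this list had 2 genes called, both higher than in T47D-VC1, or 8.33% of its tested genes against 1.65% of all genes. THRSP, also called Spot 14 and linked to lipid synthesis in liver and breast, gave 165, 157 and 150 in T47D-VC1, 532, 847 and 830 in T47D-PA5, and 194, 457 and 464 in T47D-PA6. The rise in T47D-PA5 was 2.20 ± 0.33 (adjusted p-value 0.018), kept under 15 of 21 alternatives. ACACA, the acetyl-CoA carboxylase that supplies FASN with malonyl-CoA, gave 7655, 7100 and 7746 in T47D-VC1, 10118, 10645 and 10390 in T47D-PA5, and 5893, 6615 and 6334 in T47D-PA6. Its rise of 0.47 ± 0.09 in T47D-PA5 was at the edge (adjusted p-value 0.049, kept under 8 of 21), whereas its difference between T47D-PA6 and T47D-PA5, -0.73 ± 0.09 (adjusted p-value 0.0042), was kept under all 21. Like FASN, ACACA thus had every T47D-PA5 array above every array of the other lines. Also lower in T47D-PA6 than in T47D-PA5, outside the rule for naming, was ACLY, which makes cytosolic acetyl-CoA, at -0.61 (adjusted p-value 0.033).

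For storage and lipid droplets, 25 of 31 other genes were tested, and the median difference between T47D-PA6 and T47D-VC1 was 0.17 with 19 of 25 positive, against 45.6% of all genes. AGPAT4, an acyltransferase of glycerolipid synthesis, gave 15.7, 13.0 and 9.28 in T47D-VC1, 55.4, 40.4 and 46.1 in T47D-PA5, and 57.8, 58.4 and 61.5 in T47D-PA6. It rose in both lines, by 2.26 ± 0.20 in T47D-PA6 (adjusted p-value 0.00057) and by 1.92 ± 0.20 in T47D-PA5 (adjusted p-value 0.0030), kept under 20 and 18 of 20 alternatives. Of the T47D-VC1 arrays, 1 showed it well above background. AGPAT4 was thus tested only because it passed the filter in T47D-PA5 and T47D-PA6, where it is high. With the mean of its probes the rise in T47D-PA5 was 1.14 and no longer called. With normexp the rises were 0.72 and 0.56. LPIN1 and GPAT3, which act in triglyceride synthesis, rose in T47D-PA6 by 0.67 and 0.64 (adjusted p-values 0.026 and 0.027, kept under 15 and 13 of 21 alternatives). In T47D-PA5 their differences from T47D-VC1 were 0.42 and 0.67 (adjusted p-values 0.21 and 0.058), with all arrays above those of T47D-VC1. PLIN3, another droplet coat protein named here outside the rule, fell by 0.46 (adjusted p-value 0.039). Between T47D-PA6 and T47D-PA5, DGAT2, an enzyme of the last step of triglyceride synthesis, gave 39.2, 42.4 and 42.7 against 131, 70.6 and 79.7, a difference of -1.13 ± 0.23 (adjusted p-value 0.021, kept under 16 of 21). T47D-VC1, at 44.8, 46.7 and 33.3, lay with T47D-PA6. HILPDA, a lipid droplet protein induced in hypoxia, exceeded its T47D-PA5 level in T47D-PA6 by 0.78 (adjusted p-value 0.021, kept under 14 of 21). Here too the T47D-PA6 arrays overlapped those of T47D-VC1, with a difference of 0.29 (adjusted p-value 0.29, limma). All T47D-PA5 arrays of HILPDA lay below the control, at -0.49 (adjusted p-value 0.19, limma).

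For oxidation, 29 of 30 other genes were tested, and against T47D-VC1 26 of the 29 had a negative difference in T47D-PA6, as did 54.4% of all genes, with a median of -0.20. Limma called 4 of 29, all lower, where 5.16% of all genes were called lower. SLC25A20, the carnitine-acylcarnitine carrier of the inner mitochondrial membrane, gave 1363, 1402 and 1321 in T47D-VC1 and 1022, 953 and 867 in T47D-PA6 (-0.53 ± 0.10, adjusted p-value 0.015, kept under 16 of 21). HADH, a dehydrogenase of mitochondrial oxidation, fell by 0.51 (adjusted p-value 0.039, kept under 10 of 21), and CRAT, carnitine acetyltransferase, by 0.42 against T47D-VC1 (adjusted p-value 0.034) and 0.44 against T47D-PA5 (adjusted p-value 0.029, lost with slide as a block). In T47D-PA5 the list's median was -0.07 with 20 of 29 negative, against 54.7% of all genes, and limma called 0 (3 unadjusted; by the methods' t-test 0 adjusted and 4 unadjusted). The genes that fell act at other steps than CPT1A, which was not among them in the main fit. Without slide 1, CPT1A was called between T47D-PA6 and either other line, in fits that called 7273 and 6938 of all genes. That alternative was chosen after seeing the data, and the members were chosen from these signals, so nothing is read from it.

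Among 14 regulators of these genes, 12 were tested, and limma called 0 in T47D-PA6 compared with T47D-VC1 (4 unadjusted; by the methods' t-test 0 adjusted and 2 unadjusted) and 0 in T47D-PA5 (2 unadjusted; by the methods' t-test 0 adjusted and 3 unadjusted). Between T47D-PA6 and T47D-PA5, SREBF1, the sterol-regulated activator of FASN, ACACA and SCD, gave 12250, 13135 and 12968 against 19193, 17651 and 18615 (-0.53 ± 0.10, adjusted p-value 0.016, kept under 17 of 21). ESRRA, an orphan nuclear receptor of oxidative genes, was higher by 0.40 (adjusted p-value 0.034, kept under 12 of 21 and lost with slide as a block). PPARG, a known activator of CD36, was among the regulators not tested.

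Genes around CD36 on chromosome 7 were then read, a choice made after the values were seen. GNAI1, which encodes an inhibitory G protein subunit and lies 0.45 Mb from the CD36 probe, gave 18.7, 25.3 and 28.8 in T47D-VC1, 24.4, 26.4 and 24.2 in T47D-PA5, and 67.4, 107.4 and 90.7 in T47D-PA6. It was the 1 of the 6 nearest tested genes that was called, by 1.86 against T47D-VC1 (adjusted p-value 0.0016, limma, kept under 20 of 21 alternatives) and 1.80 against T47D-PA5 (adjusted p-value 0.0026, kept under all 21). Of all tested genes, 9.74% and 9.46% were called in these comparisons. With normexp both differences were 0.86. SEMA3C, 0.07 Mb away on the other side, differed by -0.32 from T47D-VC1 (adjusted p-value 0.43). The other 4, MAGI2, RPL13AP17, LOC100128317 and PCLO, lay 0.90 to 2.66 Mb away and differed by -0.09 to 0.21. Over the 1000 tested genes of chromosome 7 the median difference between T47D-PA6 and T47D-VC1 was 0.01. The chromosome medians of the other tested members were between -0.21, on chromosome 9 with PLIN2, and 0.00.

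**Figure D4:**
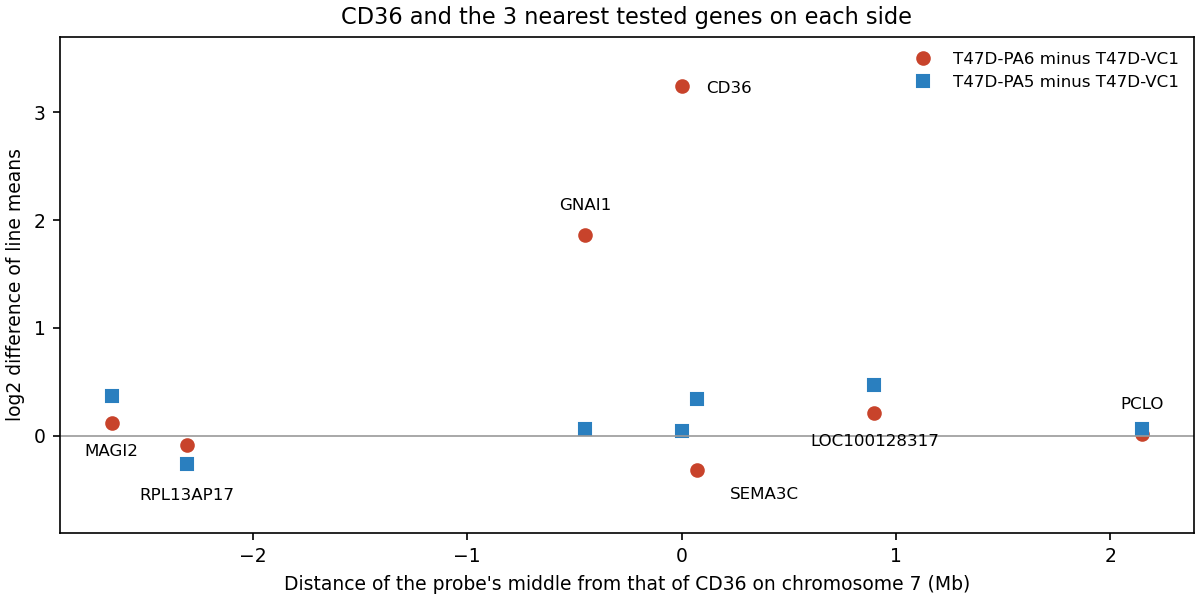
Log2 difference of line means for CD36 and the 3 nearest tested genes on each side, against the distance between probe centers on chromosome 7 in Mb; circles compare T47D-PA6 with T47D-VC1 and squares T47D-PA5 with T47D-VC1. CD36 at 3.24 and GNAI1 at 1.86 stand above the other circles, which lie between -0.32 and 0.21.

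Over the 9 arrays, the 4 non-member genes whose log2 signal ran most like that of CD36 were WFDC3 (Pearson r 0.984), an unnamed transcript listed as ENST00000513713 (0.983), NTN4 (0.978) and IQSEC2 (0.978). All 4 were well above background on all 9 arrays, so the same 4 led among the genes with that property. Of 20069 genes compared, 16 had r above 0.95. Since the arrays fall into 2 levels of CD36, such an r says that a gene separates T47D-PA6 from the rest and little more. NTN4, a laminin-related secreted protein, had the nearest size, with 24.5, 24.4 and 21.3 in T47D-VC1, 29.1, 36.5 and 37.3 in T47D-PA5 and 348, 243 and 233 in T47D-PA6, a log2 difference of 3.53 from T47D-VC1. As with CD36, its highest array was T47D-PA6 replicate 1. No gene of the fatty acid lists was among the 4.

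**Figure D5:**
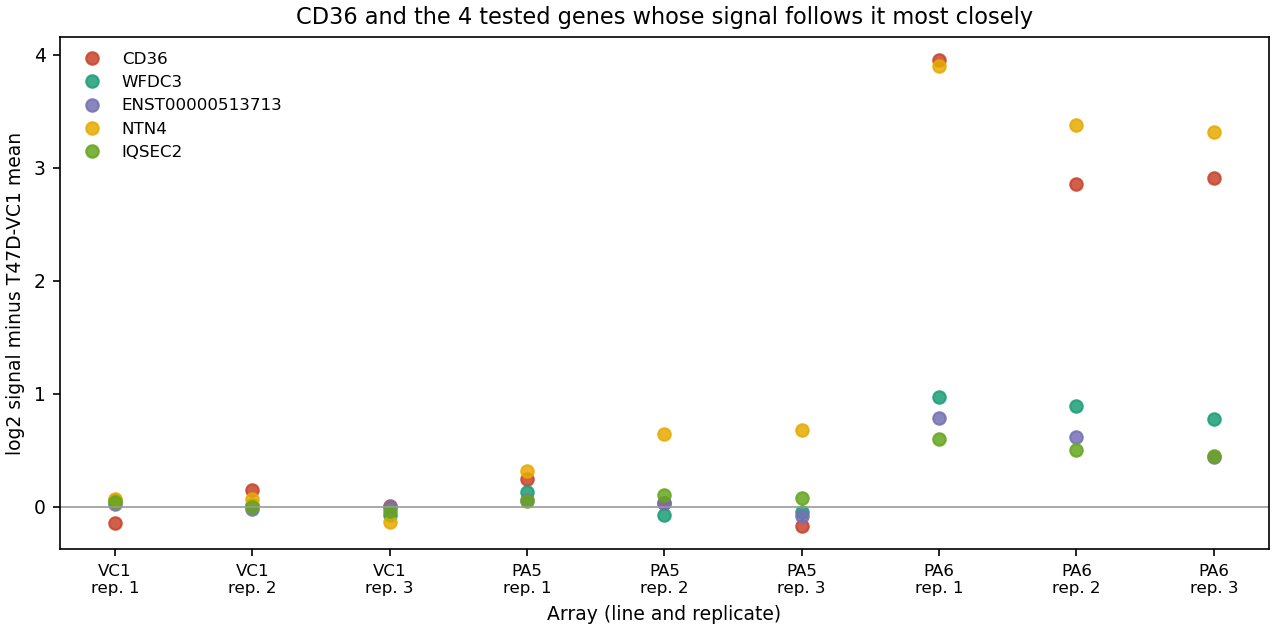
Log2 signal of CD36 and of the 4 tested genes with the highest Pearson r to it, each minus its own T47D-VC1 mean, on the 9 arrays. On the T47D-PA6 arrays CD36 and NTN4 lie far above 0 and the other 3 genes, whose log2 differences were 0.51 to 0.88, less so; r does not depend on these sizes.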

How the data were processed

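RNA of T47D-VC1, T47D-PA5 and T47D-PA6 was hybridized to SurePrint G3 Human Gene Expression v3 arrays, 3 per line. The authors deposited spot intensities from Feature Extraction (version 10.7.1.1 in the files, 9.5.1.1 in the submitters' processing notes), background-subtracted and not normalized between arrays, and a table of quantile-normalized intensities, used as an alternative. Control and outlier spots were left out, spots of a probe averaged as log2 values, and 58201 probes quantile-normalized. The 26172 probes well above background on every array of a line were fitted with limma 3.58.1 in R 4.3.3 (data.table, version 1.17.8; 6 residual degrees of freedom), each gene was read from its brightest tested probe, and p-values were Benjamini-Hochberg adjusted over 20092 genes. The fit was tested on simulated data. Names came from RefSeq symbols for 31127 probes, accessions for 3418 and synonyms for 474, and 23182 kept the file's name. Where a line was nowhere well above background, "at least" compares with its signal or, where higher, the dimmest probe well above background. For arrays, their number limits the precision.

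Members and lists were chosen with earlier results of these data known. Named are all members, up to 3 called genes per list and comparison with the largest difference, and the 5 genes most correlated with CD36. Results for some of the genes under this rule are not reported here. Alternatives were a 75th percentile shift, normexp (offset 50), the authors' table, no or a strict filter, slide and replicate blocks, each array left out, an intensity trend, the mean of a gene's probes, the compared lines alone, and the methods' t-test (unpaired). The normexp offset is added to every signal and so shrinks the log2 differences of dim probes.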

Additional observations from a re-analysis of the deposited data

How the results depend on the processing

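The log2 difference of CD36 between T47D-PA6 and T47D-VC1 moved from 3.24 to 2.79 with normexp, 2.81 without slide 1 (an alternative chosen after seeing the data), 4.10 within slide 1 and 2.88 within slide 3, and was 2.88 to 3.43 with single arrays left out; between T47D-PA6 and T47D-PA5 it moved from 3.20 to 2.76 with normexp and 3.71 within slide 1, and was 2.85 to 3.40; between T47D-PA5 and T47D-VC1 it moved from 0.04 to 0.39 within slide 1, and was -0.06 to 0.14. With single arrays left out, the lowest value of both T47D-PA6 comparisons came without T47D-PA6 replicate 1.

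Members called between T47D-PA6 and T47D-PA5 went from 1 to 2, FASN joining, with normexp, slide as a block, the replicate block, the intensity trend and without T47D-VC1 replicate 1, so 1 to 2 with single arrays left out. Without slide 1 the counts were 3, 2 and 3 for T47D-PA6 over T47D-VC1, T47D-PA5 over T47D-VC1 and T47D-PA6 over T47D-PA5, and with single arrays left out they stayed at 1 and 0 in the first and second.

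Pathway genes called between T47D-PA6 and T47D-VC1 went from 13 to 7 with no filter, 20 with the replicate block, 20 with the intensity trend, 3 by the methods' t-test, 7 with the 2 lines alone, 49 without slide 1, and 4 to 22 with single arrays left out (4 without T47D-VC1 replicate 3 or either of T47D-PA6 replicates 2 and 3, 6 without T47D-VC1 replicate 2, 7 without T47D-PA5 replicate 2 or 3, 22 without T47D-PA6 replicate 1). For T47D-PA5 over T47D-VC1 they went from 3 to 5 with slide as a block, 6 with the trend, 1 with the mean of probes, 1 by the methods' t-test (not among the 3), 31 without slide 1, and 1 to 5 with single arrays left out (1 without replicate 2 or 3 of either line, 5 without T47D-PA6 replicate 1). For T47D-PA6 over T47D-PA5 they went from 13 to 8 with no filter, 5 by the methods' t-test, 57 without slide 1, and 3 to 19 with single arrays left out (3 without T47D-PA5 replicate 3 or either of T47D-PA6 replicates 2 and 3, 5 without T47D-PA5 replicate 2). All genes called went, for T47D-PA6 over T47D-VC1, from 1956 to 429 by the methods' t-test, 1115 with the 2 lines alone, 7273 without slide 1 and 691 to 2704 with single arrays left out; for T47D-PA5 over T47D-VC1, from 332 to 204 with no filter, 591 with slide as a block, 509 with the trend, 38 by the methods' t-test, 4030 without slide 1 and 98 to 609; and for T47D-PA6 over T47D-PA5, from 1901 to 773 by the methods' t-test, 6938 without slide 1 and 693 to 2896. The cause of these shifts was not tested. Fits with fewer arrays have fewer degrees of freedom, and the fit with no filter covers more genes. With fewer arrays the counts moved both down and up. Before adjustment the methods' t-test passed 4440, 3008 and 4850 genes in the comparisons T47D-PA6 over T47D-VC1, T47D-PA5 over T47D-VC1 and T47D-PA6 over T47D-PA5.

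Deviations of same-numbered arrays from their line means correlated at 0.099 to 0.337 over genes, and an array matched its own number best in 9 of 18 comparisons. Among the replicate 1 arrays, which shared slide 1 and a scan run, the correlations were 0.21 to 0.337. Same-numbered arrays thus shared some deviation, and the numbers were not used to pair arrays in the main fit. The main fit has no term for slide or replicate, so the shift of replicate 1 is part of its standard errors. With the replicate block the calls lost were ACACA in T47D-PA5 (adjusted p-value 0.062), and SLC27A5 (0.060) and PGR (0.062) between T47D-PA6 and T47D-PA5. No pathway gene named by the rule changed sign under the alternatives run, which did not cover ACLY, PLIN3 and CRAT over T47D-VC1; each of the 7 tested members had at least 1 comparison whose difference lay near 0 and took either sign, for CD36 T47D-PA5 over T47D-VC1 (-0.17 to 0.39).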
